A study of Mus musculus with 2 samples.

Results

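The genes described here are 9 regulators of coagulation and fibrinolysis that endothelial cells make or display: Procr, Thbd, Tfpi, Plat, Plau, Plaur, Vwf, F8 and F3. They were chosen by name, with earlier results of these data known. All probe sets whose single gene symbol in the platform annotation was one of these names were taken. This gave 14 of the 34958 probe sets with 1 symbol, and 9 of 18193 genes. A probe set is a group of short probes that together measure one transcript. Per the labels, RNA came from vascular cells flow-sorted from lungs of C57BL/6J mice, labelled as mature lung, and was measured on 2 Affymetrix expression arrays, 1 labelled old and 1 labelled young. Both groups had the left lung lobe removed (pneumonectomy), and cells were taken from the remaining right lobes. Neither the ages, nor how long after surgery the lungs were taken, nor how the cells were sorted or how many mice were pooled is given in the sources used here. Unoperated mice were not analysed here. Some marker genes of the old sample go against its lung label: 9 of 10 liver sinusoidal endothelial and 8 of 8 hepatocyte markers were 2-fold or more higher there. Lung general capillary markers, which fit the label, were also higher there (6 of 8) than in the young sample. In the young sample 6 of 8 lymphatic endothelial markers were 2-fold or more higher. The tissue and the sort of each array are therefore in doubt, and in every ratio below age cannot be told apart from a difference in tissue or cell makeup. Each group is 1 array, so no test could be run and no difference below has a replicate check. All log2 ratios are old minus young.

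Clotting starts when blood meets tissue factor (F3), which binds factor VII. Thrombin forms, factor VIII (F8) amplifies its formation, and von Willebrand factor (Vwf) carries factor VIII and tethers platelets. Healthy endothelium opposes this with tissue factor pathway inhibitor (Tfpi) and with thrombomodulin (Thbd) and the endothelial protein C receptor (Procr), which turn thrombin toward activating the anticoagulant protein C. Fibrin is removed by plasmin, which tissue-type (Plat) and urokinase-type (Plau) plasminogen activators release from plasminogen. Urokinase can be held at the cell surface by its receptor (Plaur).

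The 9 genes split between the arrays. Procr, Plat, Plau and Plaur were 2-fold or more higher in the young sample, by 14.0-fold, 13.8-fold, 7.50-fold and 2.23-fold. F8 was 6.07-fold higher and F3 at least 6.97-fold higher in the old sample. Thbd (1.74-fold toward old), Tfpi (1.34-fold toward old) and Vwf (1.79-fold toward young) lay within 2-fold. For Tfpi this holds for the probe set that stands for the gene, while 1438530_at and 1452432_at were 3.47-fold and 4.30-fold toward old. Past 2-fold, the young side held the protein C receptor and the 3 genes of plasminogen activation. The old side held tissue factor and factor VIII. Not all members follow such a division by function: Vwf, which also promotes clotting, was toward young, and the inhibitor Tfpi toward old. Scaling set the median log2 ratio of measured probe sets to 0, and signals below a floor of 73.7 signal units were treated as unordered. A fold against the floor is a lower bound. That of F3 fell to a log2 ratio of 0.07 with the floor at the 75th percentile. All 9 genes were above the floor on at least 1 array and 8 on both, F3 being below it in the young sample.

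The background in the same comparison was 1937 of 12105 measured genes (16.0%) at 2-fold or more on the old side and 1366 (11.3%) on the young side, 27.3% in all. The members had 2 of 9 toward old and 4 of 9 toward young, 6 of 9 in all. With the mean over probe sets 3 stood toward old, Tfpi being the addition, as did 1833 of 12160 genes. Their median log2 ratio was -0.84, against 0.03 over all measured genes. The members were chosen with earlier results of these data known, so this comparison is no independent evidence of an excess. Procr ranked 76 and Plat 78 among the genes farthest toward the young array, and Plau ranked 175. On the other side F3, by its lower bound, ranked 525 and F8 ranked 603. Plaur was far closer to the centre, at rank 1134. When the arrays were instead scaled to equal pan-endothelial markers, an alternative chosen after seeing the data, 1440 genes stood toward old and 2607 toward young. The members then had 2 toward old and 5 toward young, Vwf being the addition.

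**Figure D1:**
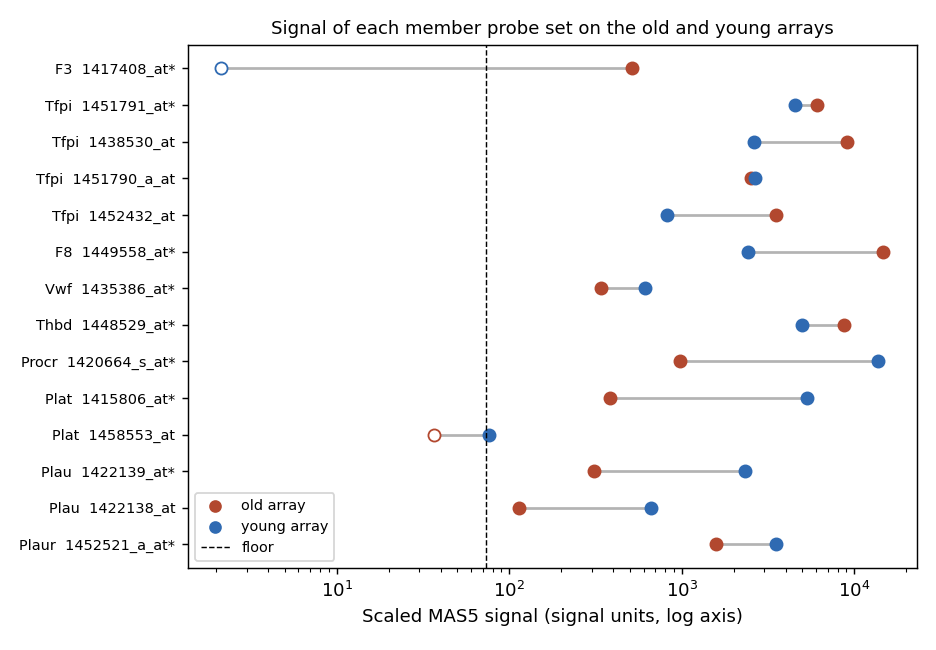
Scaled MAS5 signal (signal units, log axis) of each of the 14 member probe sets in the old (red) and the young sample (blue), with the probe set that stands for its gene starred, the floor of 73.7 dashed and signals below it drawn open. The wide gaps are those of F3 and F8, with the old array on the right, and of Procr, Plat and Plau, with the young array on the right.

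Markers of other cell types also differed between the samples. In bulk RNA, fewer cells of a type and less RNA per cell cannot be told apart. Summed signals below cover all genes of a list that had a value, also those below the floor, while counts cover measured genes only. All 10 pan-endothelial markers were above the floor on both arrays, with a median log2 ratio of 0.45 and summed signals of 115078 in the old and 77829 in the young sample. Of these, 3 were 2-fold or more higher in the old sample (Tek 5.91-fold, Esam 2.68-fold, Kdr 2.21-fold) and 1 in the young (Emcn 2.17-fold), while 6, among them Pecam1 (-0.04) and Cdh5 (0.33), lay within 2-fold. Of 8 lymphatic endothelial markers, 6 were 2-fold or more higher in young and 0 in old (summed signal 35140.3 in old, 66257 in young). Prox1, which sets lymphatic identity, was below the floor in the old sample. Toward old stood 9 of 10 liver sinusoidal endothelial markers (186203 against 18916), and 8 of 8 hepatocyte markers (14278 against 103), all 8 below the floor in the young sample. The old side also held 7 of 8 pan-leukocyte markers (14235 against 1798), 7 of 8 monocyte and macrophage markers (19384 against 705), and 6 of 7 fibroblast markers (22871 against 313). It held 7 of 9 pericyte and smooth muscle (24469 against 465) and 6 of 6 mesothelial markers (12305 against 139). On the old side were likewise 6 of 8 lung general capillary markers (79342 against 18185), 4 of 7 arterial (26149.8 against 6217) and 2 of 5 platelet markers (1588 against 554). The young side held 1 arterial marker. Of 7 venous markers, 2 stood toward old and 1 toward young (15607 against 15688.5), with a median log2 ratio of -0.35. Itgam, Pdgfra, the arterial marker Gja5 and the platelet markers Gp6 and Treml1 did not reach the floor in either sample. Of the lung epithelial markers Sftpc, Nkx2-1 and Scgb1a1 did not reach the floor in either sample. Of 5 measured ones 2 stood toward old and 1 toward young (summed signal 1017 against 493 with the unmeasured ones). The part of these differences in the ratios of the 9 genes was not tested.

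**Figure D2:**
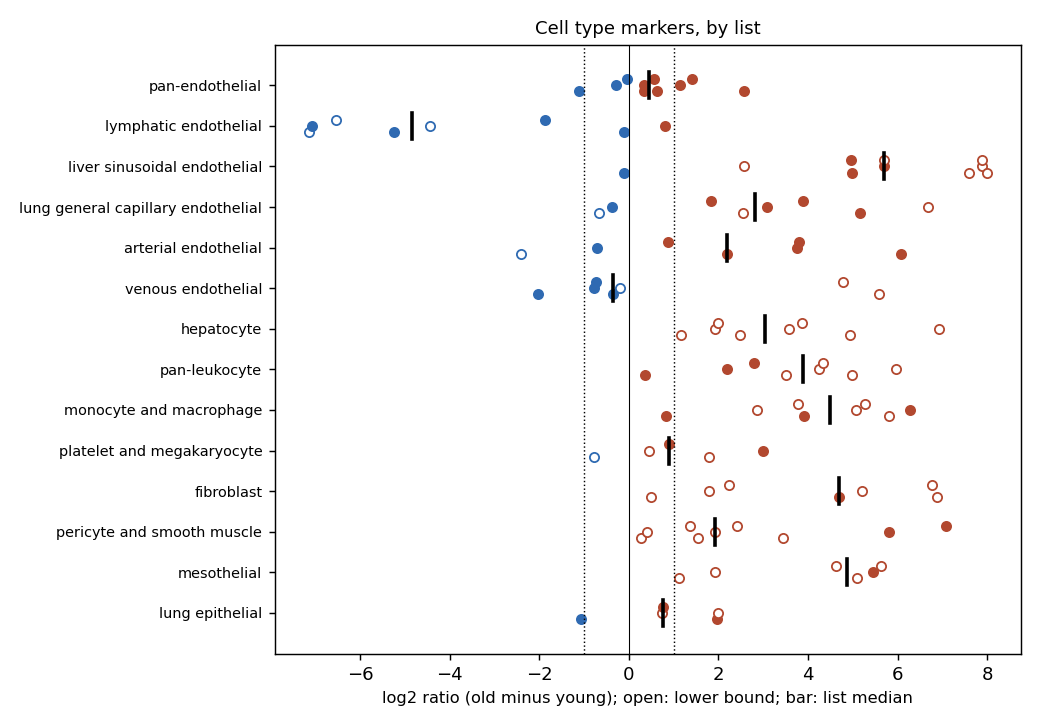
Log2 ratio (old minus young) of the measured genes of 14 cell type marker lists, 1 point a gene, with lower bounds drawn open, list medians as bars and dotted lines at 2-fold. Pan-endothelial markers centre near 0 (median 0.45), 6 of 8 lymphatic markers lie past 2-fold on the young side (list median -4.83), and liver sinusoidal (5.70), mesothelial (4.86) and fibroblast (4.69) markers lie on the old side.

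Tissue factor and its inhibitor differed in how the arrays saw them. F3, the receptor that starts coagulation and which quiet endothelium displays little of, had a single probe set (1417408_at) with a signal of 514 in the old and 2.13 in the young sample. The gene was therefore measured only in the old sample, and its difference is at least 6.97-fold (log2 2.80). This bound moves with the floor: it was 4.66 with the floor at the 25th percentile and 0.07 with the floor at the 75th, where the old signal itself lay barely above the floor. Fibroblasts and monocytes are known sources of tissue factor, and their markers were on the same side, 6 of 7 and 7 of 8. Mesothelial (6 of 6), hepatocyte (8 of 8) and pericyte and smooth muscle (7 of 9) markers were on that side too. Lymphatic markers were mostly on the other (6 of 8). The part of any cell type in the F3 ratio was not tested.

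Tfpi, a Kunitz-type inhibitor that blocks tissue factor with factor VIIa and factor Xa, had 4 probe sets, and they did not share a ratio. Probe set 1451791_at, which stands for the gene, had 6086 in the old and 4535 in the young sample (log2 ratio 0.42). Probe set 1451790_a_at had 2517 and 2654 (-0.08). The remaining probe sets were higher in the old sample: 1438530_at had 9047 against 2609 (1.79), and 1452432_at had 3517 against 817 (2.10). The 4 ratios had an SD of 1.05, against 0.42 pooled over 4514 genes with several measured probe sets, so the gene had no single ratio on this platform. As a mean over its probe sets Tfpi was at 1.06, past 2-fold, and under pan-endothelial scaling it was at -0.02. Transcripts of Tfpi with different 3′ ends encode different forms of the inhibitor, and which form each probe set reads was not determined here.

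RefSeq promoter windows (GRCm38.p6) were found for 5 of the 9 genes, and only bases outside the annotated gene were kept. Windows with fewer than 100 such bases were left out, which removed those of Plaur and F8 and left 3. These are shown because they include 1 member past 2-fold on each side, F3 and Procr. They are F3 at chr3:121723287-121723536 (plus strand, 250 bases), Tfpi at chr2:84476776-84477009 (minus strand, 234 bases) and Procr at chr2:155750967-155751124 (plus strand, 158 bases). Each is written 5′ to 3′ toward the gene, with capitals for matches on either strand to the AP-1 letters TGANTCA or the GC-box letters GGGCGG.
F3: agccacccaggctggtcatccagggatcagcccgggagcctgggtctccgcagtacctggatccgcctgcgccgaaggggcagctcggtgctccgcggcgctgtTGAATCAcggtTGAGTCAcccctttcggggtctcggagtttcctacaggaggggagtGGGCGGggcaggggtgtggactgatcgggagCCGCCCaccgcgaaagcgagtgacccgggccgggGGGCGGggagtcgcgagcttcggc
Tfpi: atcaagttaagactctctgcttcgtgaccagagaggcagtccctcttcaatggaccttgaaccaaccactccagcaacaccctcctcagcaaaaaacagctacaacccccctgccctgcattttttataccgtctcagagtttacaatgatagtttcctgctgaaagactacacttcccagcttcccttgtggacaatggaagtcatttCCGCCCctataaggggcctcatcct
Procr: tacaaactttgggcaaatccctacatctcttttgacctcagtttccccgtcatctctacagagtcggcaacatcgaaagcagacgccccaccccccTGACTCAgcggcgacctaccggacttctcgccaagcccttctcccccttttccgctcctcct
The F3 window held 2 AP-1 matches, at bases 105 to 111 and 116 to 122, and 3 GC boxes. In windows of 250 bases, 6.75% of 32851 RefSeq promoters held the AP-1 letters and 32.7% the GC box. The Procr window held 1 AP-1 match, at bases 97 to 103, and no GC box, and 4.27% of windows cut to 158 bases held the AP-1 letters. The Tfpi window held no AP-1 match and 1 GC box, at bases 210 to 215, whose letters were in 30.4% of windows of 234 bases. For shares at 158 and 234 bases, every window was cut at its end nearer the gene, and bases inside annotated genes stayed in. The Procr and Tfpi stretches instead end at the gene, so these shares are only a rough background. The letters CCACCC, which KLF factors bind, also searched on both strands, occurred once each in F3 and Procr, and 28.1% and 17.5% of windows of those lengths held them. A GATA search with the letters AGATAA found no match in the 3 windows, and 9.99% of windows of 250 bases had at least 1. None of these matches overlapped another. AP-1 letters were thus present both in a member on the old side and in one on the young side, and a match of letters is not a binding site.

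Factor VIII and its carrier went different ways. F8, the cofactor of factor IXa that is lacking in haemophilia A and is made mainly by endothelial cells, including those of liver sinusoids and lymphatics, had 14742 in the old and 2430.3 in the young sample (1449558_at). This is 6.07-fold higher in the old sample (log2 ratio 2.60), and the value stayed between 2.15 and 2.60 over 10 alternatives. Both other floors, the mean over probe sets and leaving out probe sets that can match several transcripts could not move it. Vwf, the multimer stored in Weibel-Palade granules, had 342 in the old and 612 in the young sample (1435386_at, log2 ratio -0.84), which is within 2-fold. The difference between the F8 and Vwf ratios was 3.44 on the log2 scale, or 10.9-fold. A common scale factor cancels in that difference, and it was 2.93 to 3.44 over 10 alternatives. Liver sinusoidal endothelial markers were on the side of F8 (9 of 10) and lymphatic markers on the other (6 of 8). Lung general capillary (6 of 8) and arterial markers (4 of 7, with 1 toward young) were on the side of F8 too. The part of any cell type in the F8 and Vwf ratios was not tested.

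The protein C pathway was split between its thrombin-binding and its protein C-binding receptor. Thbd, which binds thrombin and switches it from clotting to protein C activation, had 8706 in the old and 5001 in the young sample (1448529_at, log2 ratio 0.80). Procr, which presents protein C to that complex, had 978 in the old and 13659.5 in the young sample (1420664_s_at, log2 ratio -3.80). Procr was thus 14.0-fold higher in the young sample. The Thbd ratio stayed within 2-fold under the alternatives run, from 0.35 to 0.80. As for F8, changes of the floor and of the probe sets used could not move it. The difference between the Thbd and Procr ratios was 4.60, or 24.3-fold, with a range of 4.44 to 4.71 over 9 alternatives. Of those, only quantile normalization, loess and the offset could move it. The only Procr probe set is of a kind that can match several transcripts, so Procr had no value without such probe sets. Of the 8 lymphatic markers, 6 passed 2-fold toward young, as Procr did, while Lyve1 (-0.11) and Flt4 (0.81) lay within 2-fold. The part of any cell type in the Procr ratio was not tested.

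The plasminogen activators and their receptor were all higher in the young sample. Plat, the main endothelial activator, which is released into blood and acts on fibrin, had 385 in the old and 5302 in the young sample (1415806_at, log2 ratio -3.78). Its other probe set (1458553_at) had 36.8 in the old and 75.9 in the young sample, so only its young signal passed the floor, barely, and it gave a bound of 1.03-fold. The mean over both was -1.91. The Plat difference of 13.8-fold thus rests on 1 probe set, as the second was too dim to measure it.

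Plau, the activator of cell migration and tissue remodelling, had 308 in the old and 2311 in the young sample (1422139_at, log2 ratio -2.91). Its second probe set (1422138_at) had 113 and 660.2 (-2.54), so both put Plau 5.82-fold to 7.50-fold higher in the young sample. Plaur, the membrane-anchored receptor that holds urokinase at the cell surface, had 1576 in the old and 3509.5 in the young sample (1452521_a_at, log2 ratio -1.16). The ratio of the enzyme lay 1.75 below that of its receptor on the log2 scale (-1.75), and -1.75 to -1.09 over 10 alternatives. Those that only rescale the arrays, the lower floor and leaving out probe sets that can match several transcripts could not move this difference. Plat lay 0.88 below Plau (-0.88), but with the mean over probe sets, which takes in the dim second probe set of Plat, the difference was 0.81. Monocyte and macrophage markers, whose cells are known to carry Plaur, lay on the opposite side from Plaur, 7 of 8 being higher in the old sample. Lymphatic endothelial markers lay on the side of Plat, Plau and Plaur, with 6 of 8 at 2-fold or more toward young and 0 toward old. The part of any cell type in the Plat, Plau and Plaur ratios was not tested.

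**Figure D3:**
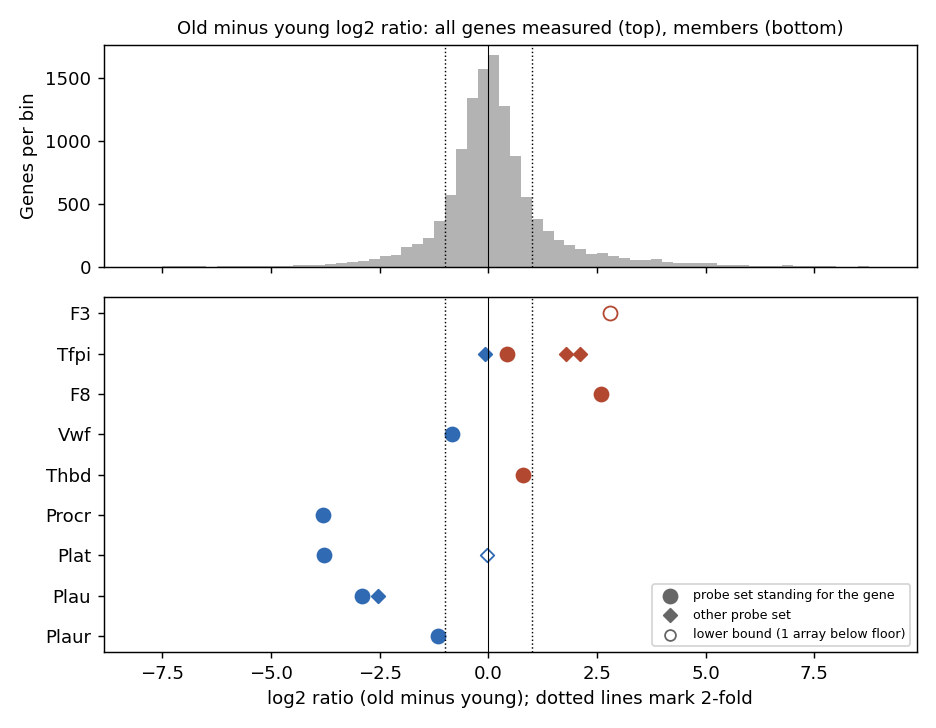
Top, number of genes per bin of log2 ratio (old minus young) over the 12105 measured genes. Bottom, the log2 ratio of each member probe set, with circles for the probe set that stands for the gene, diamonds for others, lower bounds drawn open and dotted lines at 2-fold. Procr, Plat and Plau lie in the left tail, F3 and F8 in the right, and the 4 Tfpi probe sets spread from -0.08 to 2.10.

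Other genes of the pathway were taken from 7 lists, described beside the same background of 16.0% and 11.3%. Of 15 plasma coagulation factors, which the liver mainly makes, 9 were measured, and 6 were 2-fold or more higher in the old sample and 0 in the young (median log2 ratio 2.34, with lower bounds taken as they stand here and in the other lists). The fibrinogen chain genes Fga, Fgg and Fgb were at least 6.23-fold, 6.18-fold and 5.53-fold higher and vitronectin (Vtn) at least 5.79-fold. All 6 were below the floor in the young sample, as were the 8 hepatocyte markers, whose part in these values was not tested. Of 11 plasma anticoagulant proteins, 8 were measured, with 3 toward old and 0 toward young (median 0.87). With the floor at the 25th percentile 6 stood toward old (median 2.16), and with it at the 75th only 1 did. Tfpi2, a relative of Tfpi, was 11.2-fold higher in the old sample (1712 against 152), antithrombin (Serpinc1) at least 6.96-fold, and Hrg had a log2 ratio of at least 1.59. Protein S (Pros1), the cofactor of activated protein C, was within 2-fold (1.83-fold toward old), and protein C itself (Proc) was seen only in the old sample, at least 1.40-fold higher. Adamts13, which cleaves von Willebrand factor, was not analysed here.

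Of 13 fibrinolysis enzymes, inhibitors and plasminogen receptors, 8 were measured, with 3 toward old and 1 toward young (median 0.57). Plasminogen (Plg), the substrate of Plat and Plau, was at least 5.89-fold higher in the old sample, opposite to its activators, and is itself a hepatocyte product. Lrp1, an endocytic receptor that clears activator complexes, was at least 9.59-fold and Mrc2 at least 3.27-fold higher in the old sample. Serpini1, a serpin that inhibits Plat, was 3.05-fold higher in the young sample, on the same side as Plat. The plasminogen-binding gene Anxa2 was within 2-fold (1.48-fold toward young). Serpinb2, an inhibitor of urokinase, did not reach the floor in either sample.

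Of 13 thrombin receptor and platelet-vessel genes, 9 were measured, with 3 on each side (median -0.65, but 0.43 with the floor at the 75th percentile). The thrombin receptor F2r was 2.82-fold higher in the old sample (22852 against 8103). Clec1b, which is also a liver sinusoidal marker, was at least 194-fold and the platelet chemokine Pf4 7.98-fold higher in the old sample. Itgb3, an integrin chain that binds vitronectin and fibrinogen, was 7.33-fold and P-selectin (Selp) 4.05-fold higher in the young. Of 11 antithrombotic endothelial enzymes and regulators, 8 were measured, with 4 toward old and 1 toward young (median 0.73). That median was 0.24 with the deposited values and -0.07 with pan-endothelial scaling. Ptgis, the prostacyclin synthase, was at least 13.2-fold and Ptgs2 at least 24.4-fold higher in the old sample. Klf2, a transcription factor known to induce Thbd, was 4.84-fold higher (19409 against 4012), and Klf4, another, 2.12-fold, while Thbd itself was 1.74-fold toward old. Nos3 was within 2-fold (1.30-fold toward old), and Hs3st1, which makes the heparan sulfate that binds antithrombin, was 10.3-fold higher in the young sample.

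Of 15 Weibel-Palade granule and factor VIII secretion and clearance genes, 12 were measured, with 4 toward old and 3 toward young (median 0.67). Lman1 and Mcfd2, which together carry factor VIII out of the endoplasmic reticulum, were 1.41-fold and 2.32-fold toward old. Stab2, a scavenger receptor that takes up von Willebrand factor with factor VIII, was 31.6-fold higher in the old sample (24882 against 787) and is also a liver sinusoidal marker. Angpt2, stored with von Willebrand factor, was 4.64-fold higher in the young sample, and P-selectin, stored in the same granules, was on that side too. Mmrn1 was 135-fold higher in the young sample, with an old signal of 74.6 just above the floor, and is also a lymphatic marker. Rab27a, which acts in granule release, was 4.28-fold higher in the old sample. Granule cargo was thus on the young side for Angpt2 and Selp, as was the within-2-fold value of Vwf. Of 7 genes of the vitamin K cycle and gamma-carboxylation, all 7 were measured, with 0 toward old and 2 toward young (median -0.47). Nqo1 had a log2 ratio of -4.46 and Prrg4 was 2.02-fold higher in the young sample, and Prrg1 (1.73-fold toward old) and Gas6 (1.42-fold toward young) lay within 2-fold.

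**Figure D4:**
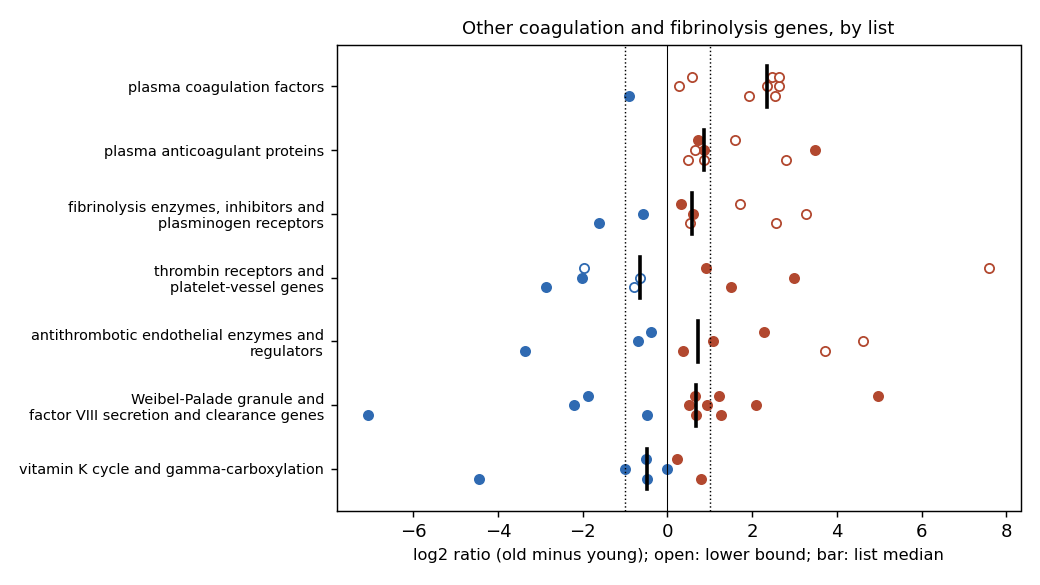
Log2 ratio (old minus young) of the measured genes of 7 lists of other coagulation and fibrinolysis genes, 1 point a gene, with lower bounds drawn open, list medians as bars and dotted lines at 2-fold. Plasma coagulation factors lie to the right (median 2.34), nearly all as lower bounds, while the platelet-vessel (-0.65) and vitamin K (-0.47) lists have medians on the young side, which for the platelet-vessel list turns to 0.43 with the floor at the 75th percentile.

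Among these listed genes above the floor on both arrays, the nearest log2 ratio to Procr and to Plat was that of Hs3st1 (-3.37), with differences of 0.44 and 0.42. Itgb3 (-2.87) was nearest to Plau and Klf2 (2.27) to F8. Prrg4 (-1.01) was nearest to Plaur, F5 (-0.90) to Vwf, Prrg1 (0.79) to Thbd and Nos3 (0.37) to Tfpi. This likeness is over 2 arrays, so it says only that the ratios were similar.

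**Figure D5:**
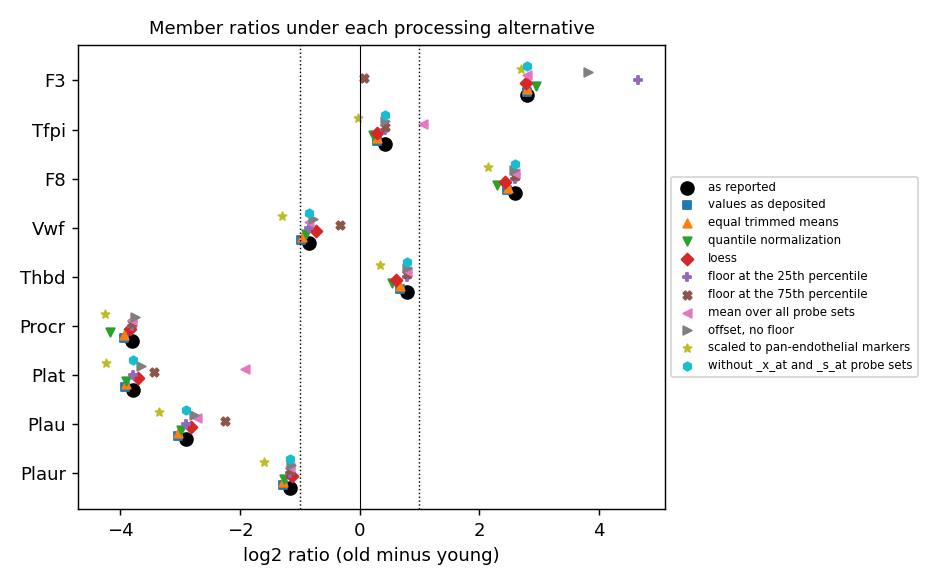
Log2 ratio (old minus young) of each member as reported (black circle) and under 10 processing alternatives (coloured symbols), with dotted lines at 2-fold. Procr, Plat, Plau, Plaur and F8 stay past 2-fold wherever they had a value, F3 moves from 0.07 to 4.66 with the floor, and Tfpi and Vwf each cross 2-fold under 1 alternative.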

How the data were processed

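Total RNA of sorted lung vascular cells was measured on 2 one-colour arrays, 1 old and 1 young. The deposited values are linear MAS5 signal intensity, 1 value a probe set, made with GCOS 1.4 and MAS5 per the submitters' processing notes. With 2% trimmed from each end, either array had a mean of 500.003. Of 45101 probe sets, 64 controls were left out. Genes were named from a 2016 platform annotation, where 34958 probe sets had 1 symbol, 932 several and 9211 none; only the first were named.

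Signals were multiplied by 1.05 (old) and 0.956 (young) to bring the median log2 ratio to 0 (from -0.13 as deposited), taken over probe sets above the median of each array on both arrays. The floor (73.7) is the higher of both medians after scaling, and lower signals were set to it before log2. The brightest probe set by mean log2 signal stands for its gene. Genes were counted at 2-fold, since 1 array per group allows no test, and the number of arrays limits the precision. The SD of 0.42 between probe sets of a gene describes probes, not mice.

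Members, lists and rules were chosen with earlier results of these data known. The text names all members, up to 4 genes of each of 7 pathway lists by absolute log2 ratio, a set of 17 genes whatever their values, and markers from 14 lists. The alternatives used unscaled deposited values, quantile normalization, loess (span 0.4), equal trimmed means, floors at the 25th and 75th percentiles, the mean over probe sets, leaving out _x_at and _s_at probe sets, an offset of 0.5 floors, each member probe set alone, 1.5-fold and 4-fold rules and, chosen after seeing the data, scaling to pan-endothelial markers. Promoter sequences and names are from RefSeq GRCm38.p6. The procedure was tested on simulated data. Python 3.11.15, numpy 2.4.6, pandas 2.3.3, statsmodels 0.14.6 and matplotlib 3.10.9 were used.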

Additional observations from a re-analysis of the deposited data

How the results depend on the processing

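Of 94 member ratios recomputed under alternatives, 75 moved by less than 0.42, the SD between probe sets of a gene, and 19 by more. Many of the 75 could not move, so this count overstates how stable the ratios are. For Thbd and F8, both other floors, the mean over probe sets and leaving out _x_at and _s_at probe sets gave the reported value. The deposited values and equal trimmed means are nearly the same setting. None of the 6 members past 2-fold changed sign under the alternatives run, while Tfpi, within 2-fold, did under the settings given here with a negative value. Scaling to pan-endothelial markers, chosen after seeing the data, gave Procr -4.25, Plat -4.23, Plau -3.36, Plaur -1.60, Vwf -1.29, Tfpi -0.025, Thbd 0.35 and F8 2.15. The floor at the 75th percentile gave Plau -2.24, Vwf -0.33 and F3 0.073, and left 1 member on the old side. For F3, a bound against the floor, the floor at the 25th percentile gave 4.66 and the offset 3.82. The mean over probe sets gave Tfpi 1.06 and Plat -1.91. Single probe sets gave Tfpi 1.79, -0.076 and 2.10, and Plat -0.042. Of 24 recounts of members, 23 were within 1.5 times the reported count, and the young side held 3 members without the _s_at probe set of Procr. The median over all genes shifted by -0.12 with the deposited values, equal trimmed means and quantile normalization, and by -0.43 with pan-endothelial scaling. Counts of genes at 2-fold were 2964 toward old and 1780 toward young with the lower floor and 986 and 607 with the higher, where other numbers of genes were measured. Of list medians, 165 of 208 moved by less than 0.42 and 0 of those past 2-fold changed sign. Of medians within 2-fold, the antithrombotic list turned to -0.074 with pan-endothelial scaling, the platelet-vessel list to 0.43 with the higher floor, and the pan-endothelial markers to -0.0073 with quantile normalization and -0.0043 with the mean over probe sets. Of list counts, 444 of 504 stayed within 1.5 times. With the higher floor no plasma coagulation factor or lung epithelial marker was measured, so those medians have no value. No paired analysis was possible because each group has 1 array. Arrays could not be left out in turn for the same reason.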
